A study of Mus musculus with 11 samples.

Results

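The 10 bone and osteoblast genes described here, Bglap, Sp7, Ibsp, Dmp1, Alpl, Runx2, Sost, Phex, Mepe and Spp1, were chosen by symbol from the 18667 genes listed for the cochlea of the mouse, and all 10 were among the 16169 genes tested. RNA came from whole cochleae of 2-month-old mice on the C57BL/6J background, a strain whose Cdh23 variant, ahl, is linked to hearing loss in older animals. The groups were 5 wild-type (WT, Atf6+/+) and 6 Atf6 knockout (Atf6-/-) libraries, 1 per individual cochlea. The knockout allele carries an early stop codon and is present in every cell of the body, so it is specific neither to bone nor to the ear. Both sexes were used in the study, the sex of each library and any batch are not given in the sources used here, and neither is how much of the bony capsule was kept at dissection. The labels do not say whether 2 cochleae came from 1 mouse, so the p-values measure the spread between these libraries.

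The cochlea lies inside the otic capsule, a shell of dense bone that is remodelled very little after development. Osteoblasts, which build bone, arise under the transcription factors RUNX2 and SP7, deposit collagen and osteocalcin, and mineralise the matrix with the help of tissue-nonspecific alkaline phosphatase. Some become buried as osteocytes, which regulate mineral and phosphate and secrete sclerostin, an inhibitor of Wnt signalling. ATF6 is a membrane-bound transcription factor that is cleaved when unfolded proteins accumulate in the endoplasmic reticulum (ER) and that induces chaperone genes.

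Promoter sequences from RefSeq (GRCm38.p6, 250 bases before to 50 bases after each start site) were matched for 9 of the 10 genes and gave 12 promoters. Sp7 had no entry. The RUNX core, spelled ACCACA and searched on both strands, was present in at least 1 promoter of 5 of the 9 genes, namely Bglap, Dmp1, Mepe, Spp1 and Runx2. It was present in 5 of their 12 promoters, and in 16.8% of all 32851 promoters of the same length. The 250 bases before the start site are shown as examples for 4 of the 5 genes, and the fifth, Dmp1, held the core in 1 of its listed promoters, 164 bases before the start site. Capitals mark the RUNX core on either strand, and each sequence reads from 5′ to 3′ on the strand of its gene.
Bglap, chr3:88384467-88384716, minus strand: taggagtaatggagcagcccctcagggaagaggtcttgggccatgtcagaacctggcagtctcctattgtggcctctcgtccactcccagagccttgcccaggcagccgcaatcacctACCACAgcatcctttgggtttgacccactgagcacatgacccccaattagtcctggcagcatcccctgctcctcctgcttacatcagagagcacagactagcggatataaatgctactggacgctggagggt
Mepe, chr5:104325079-104325328, plus strand: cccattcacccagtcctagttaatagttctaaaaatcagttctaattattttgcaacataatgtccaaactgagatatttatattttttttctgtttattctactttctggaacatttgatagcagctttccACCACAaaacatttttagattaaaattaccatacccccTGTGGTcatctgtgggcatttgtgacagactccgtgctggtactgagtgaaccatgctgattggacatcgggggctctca
Spp1, chr5:104434861-104435110, plus strand: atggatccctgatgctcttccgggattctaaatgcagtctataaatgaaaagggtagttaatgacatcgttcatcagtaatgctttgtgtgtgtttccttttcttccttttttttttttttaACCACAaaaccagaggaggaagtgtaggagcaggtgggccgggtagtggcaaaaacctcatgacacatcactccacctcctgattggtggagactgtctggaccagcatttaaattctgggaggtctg
Runx2, chr17:44814628-44814877, minus strand: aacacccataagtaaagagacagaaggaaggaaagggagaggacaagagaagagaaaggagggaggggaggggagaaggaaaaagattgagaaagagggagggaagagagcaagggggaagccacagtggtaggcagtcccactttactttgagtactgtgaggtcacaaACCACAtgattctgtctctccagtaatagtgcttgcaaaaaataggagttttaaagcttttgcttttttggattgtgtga
The first base of the core lay 132 bases before the start site in Bglap, 118 and, on the opposite strand, 80 bases before it in Mepe, 128 in Spp1 and 80 in Runx2. Runx2 held further cores 23 and 31 bases after the start site, outside the bases shown.

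ER stress elements, which are longer than the RUNX core and rarer among all promoters, were searched in the same windows. Few or no matches in 12 promoters therefore say little about these genes. The ER stress response element bound by ATF6, an NF-Y site and an ATF6 site at a fixed spacing, was found on either strand in 0 of the 12 promoters and in 0.119% of all promoters. The unfolded protein response element TGACGTGG was found in 0 of the 12 and in 0.676% of all promoters. The element TGATGNAA, bound by C/EBP and ATF factors, was found in 1 gene, Bglap, on the opposite strand 54 bases before the start site, and in 3.97% of all promoters. A match of letters is a description of these windows and was not tested as a binding site. Dmp1, Ibsp, Mepe and Spp1 stand beside each other on chromosome 5, and belong to the family of small integrin-binding ligand N-linked glycoproteins. Their first promoters begin at 104197325, 104299037, 104325079 and 104434861.

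Bglap lies in a cluster with 2 near-identical copies, Bglap2 and Bglap3, which bears on every osteocalcin value. The coding sequences of Bglap (chr3:88383638-88384415, minus strand) and Bglap2 (chr3:88377873-88378650, minus strand) were read from GENCODE M21 transcripts on GRCm38, and each spans 4 coding exons. They are shown because a read from a stretch where they are identical can match either copy, with capitals at the positions that differ.
Bglap: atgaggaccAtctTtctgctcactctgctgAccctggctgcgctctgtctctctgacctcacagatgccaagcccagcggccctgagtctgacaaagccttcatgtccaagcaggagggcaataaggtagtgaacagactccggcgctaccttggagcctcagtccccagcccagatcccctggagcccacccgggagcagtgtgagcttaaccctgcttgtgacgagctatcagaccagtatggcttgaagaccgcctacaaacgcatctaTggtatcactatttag
Bglap2: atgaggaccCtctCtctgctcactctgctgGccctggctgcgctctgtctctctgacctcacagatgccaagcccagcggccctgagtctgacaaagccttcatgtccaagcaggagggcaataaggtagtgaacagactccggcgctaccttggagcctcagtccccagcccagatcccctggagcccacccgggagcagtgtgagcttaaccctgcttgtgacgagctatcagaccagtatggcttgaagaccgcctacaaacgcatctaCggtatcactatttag
Over 288 bases the pair differed at 4 positions (98.6% identity). Bglap3 differed from Bglap at 13 positions (95.5% identity). How reads that match several copies were shared out is not given in the sources used here beyond the use of RSEM, so the level of any single copy is uncertain.

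Values are FPKM, fragments scaled to transcript length and to the mapped reads of the library, as the authors computed them. Over all genes their sum was lowest at 462005 (an Atf6-/- library) and highest at 537926 (an Atf6+/+ library), and the number of reads behind a value is unknown. Atf6 itself checks the labels, at 8.25 to 10.6 FPKM in the 5 Atf6+/+ and 3.83 to 4.59 FPKM in the 6 Atf6-/- libraries (limma adjusted p = 5.17e-05). Coch, the gene of the abundant inner ear protein cochlin, stood between 2024 and 3731 FPKM, so inner ear RNA was present in every library. The osteoblast gene Bglap was at 51.9 FPKM or more in each of them, so bone RNA was present as well.

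None of the 10 bone genes differed between genotypes beyond the spread between libraries. In limma, 0 of 10 passed an adjusted p of 0.05, where 0.0680% of all genes tested did. By the unadjusted p, called where it was at most 0.05 and the log2 fold change exceeded 0.05 in size, the count was again 0 of 10, against 9.85% of all genes (4.48% higher and 5.37% lower in Atf6-/-). The groups overlapped for all 10, so that 0 of 10 were separated, against 1.25% of all genes. The mean log2 value was lower in Atf6-/- for 9 of the 10 genes and higher for Spp1. Their median log2 fold change was -0.31, beside -0.013 over all genes tested, of which 8845 were lower and 7324 higher. The 95% confidence intervals of the single genes, given with each gene, are wide. In RNA of a whole cochlea, fewer cells of a type and less RNA per cell cannot be told apart.

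**Figure D1:**
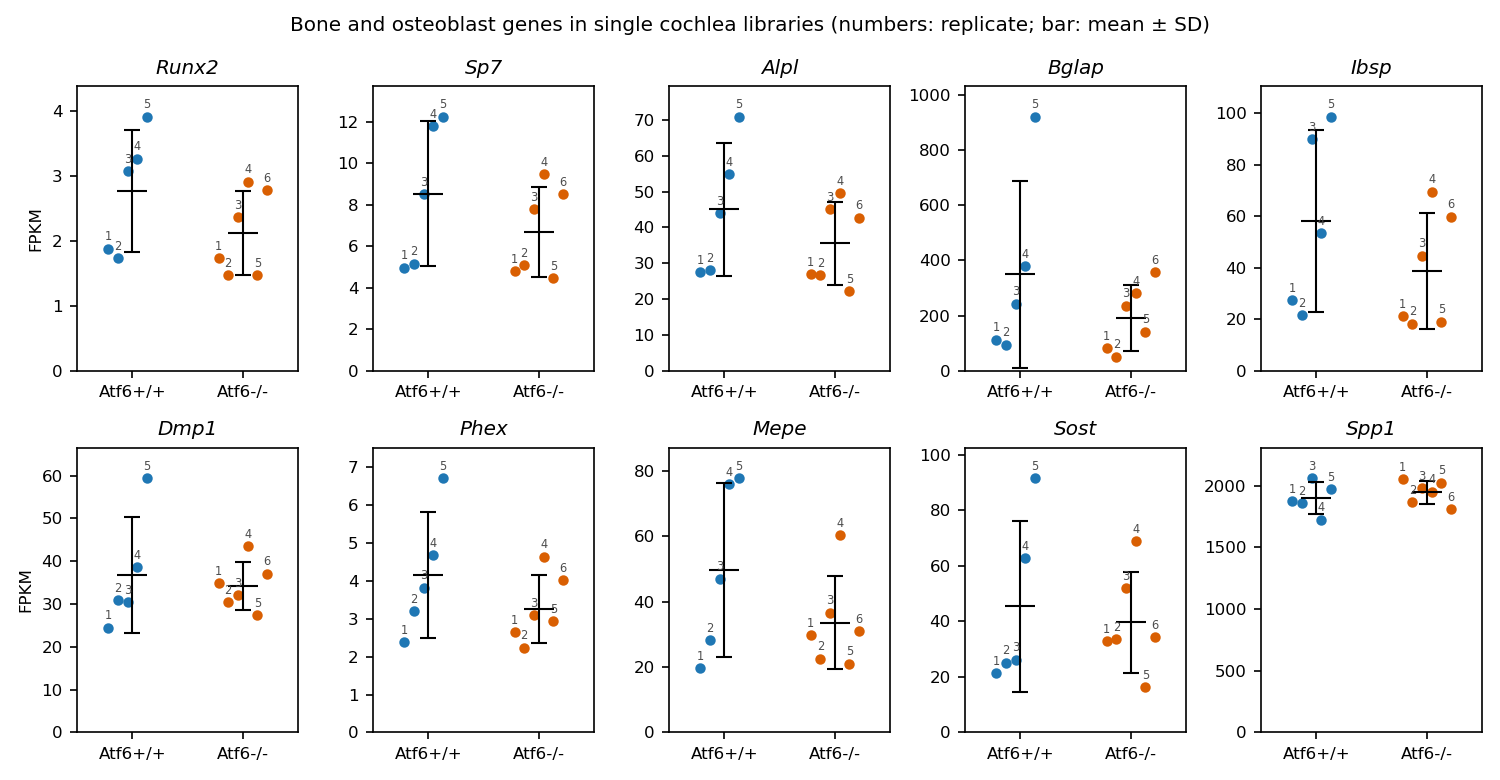
FPKM of each bone gene (y axis, linear, starting at 0) in the 5 Atf6+/+ and 6 Atf6-/- libraries, with replicate numbers beside the points and bars for mean ± SD. The groups overlap in every panel, Atf6+/+ replicate 5 is the highest library for 9 of the 10 genes, and Spp1 stays between 1725 and 2063 FPKM.

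The osteoblast transcription factors came first. Runx2 (gene ID 12393), the factor that commits mesenchymal cells to the osteoblast lineage, was measured at 1.88, 1.73, 3.07, 3.26 and 3.91 FPKM in Atf6+/+ replicates 1 to 5. In the Atf6-/- libraries it ran from 1.47 to 2.91 FPKM with a median of 2.045. Replicates 1 and 2 of both genotypes and Atf6-/- replicate 5 were low, and 4 of the 6 Atf6-/- libraries fell inside the Atf6+/+ range. The log2 fold change was -0.36 (SE 0.25, 95% confidence interval -0.90 to 0.18, limma adjusted p = 0.627), with an exact two-sided permutation p of 0.216, the lowest of the 10 genes.

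Sp7 (gene ID 170574) encodes osterix, which acts after RUNX2 in osteoblast differentiation. It stood at 4.97, 5.16, 8.49, 11.8 and 12.2 FPKM in the Atf6+/+ libraries and between 4.47 and 9.47 FPKM, with a median of 6.44, in the Atf6-/- libraries. The same 5 libraries as for Runx2 were low, all at or under 5.16 FPKM, and the other 6 were at or above 7.78 FPKM. The log2 fold change of Sp7 was -0.31 (SE 0.28, interval -0.92 to 0.31, limma adjusted p = 0.721), and leaving out 1 library moved it from -0.47 (without Atf6+/+ replicate 1) to -0.15 (without Atf6+/+ replicate 5).

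Alpl (gene ID 11647) encodes tissue-nonspecific alkaline phosphatase, which removes the mineralisation inhibitor pyrophosphate. Its levels were 27.5, 28.1, 44.0, 54.9 and 70.9 FPKM in Atf6+/+ and 22.3 to 49.6 FPKM, median 34.8, in Atf6-/- cochleae. Again the 5 low libraries lay at or under 28.1 FPKM and the other 6 at or above 42.7 FPKM. Genotype gave a log2 fold change of -0.31 (SE 0.28, interval -0.92 to 0.30, limma adjusted p = 0.715). It was -0.46 without Atf6+/+ replicate 1 and -0.12 without Atf6+/+ replicate 5.

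Among the secreted matrix proteins, Bglap (gene ID 12096), which encodes osteocalcin, a calcium-binding protein of mature osteoblasts, varied most. It was measured at 114, 94.6, 243, 378 and 921 FPKM in the Atf6+/+ libraries and at 51.9 to 358 FPKM, median 189, in the Atf6-/- libraries. The highest library, Atf6+/+ replicate 5, was 17.7 times the lowest, Atf6-/- replicate 2. Group means were 350 ± 339 FPKM (SD, n = 5) and 192 ± 120 FPKM (SD, n = 6), so that the SD of the Atf6+/+ group was nearly as large as its mean. Its log2 fold change of -0.66 was the most negative of the 10 (SE 0.63, interval -2.02 to 0.70, limma adjusted p = 0.729, exact permutation p = 0.392). Without Atf6+/+ replicate 5 it was -0.18.

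The near-identical copy Bglap2 (gene ID 12097) followed Bglap from library to library. It ranged from 39.8 to 554 FPKM, highest and lowest in the same libraries as Bglap. The ratio of Bglap2 to Bglap stayed between 0.508 and 0.766 and averaged 0.571 ± 0.0486 (SD, n = 5) in Atf6+/+ and 0.609 ± 0.0854 (SD, n = 6) in Atf6-/- cochleae (exact permutation p = 0.494). The log2 fold change of Bglap2 was -0.57 (limma adjusted p = 0.761), with -0.96 without Atf6+/+ replicate 2 and -0.078 without Atf6+/+ replicate 5, and that of the summed FPKM of both copies was -0.62 (limma adjusted p = 0.740, a sum chosen after the data had been seen). Bglap3 (gene ID 12095), a copy known to be expressed in kidney and lung more than in bone, was low at 1.17 to 8.69 FPKM and did not follow the other copies. It was lowest in Atf6+/+ replicate 4, a library where Bglap was high. Its log2 fold change was 0.11 (limma adjusted p = 0.957).

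Ibsp (gene ID 15891) encodes bone sialoprotein, which binds hydroxyapatite and nucleates mineral. It was at 27.4, 21.6, 90.0, 53.6 and 98.8 FPKM in Atf6+/+ and between 18.4 and 69.6 FPKM, median 33.0, in Atf6-/- libraries. Its 5 low libraries were those of Runx2, Sp7, Alpl and Bglap, and only 3 of the 6 Atf6-/- libraries lay inside the Atf6+/+ range, the others lying below it. Ibsp had a log2 fold change of -0.55 (SE 0.48, interval -1.60 to 0.49, limma adjusted p = 0.703). It was -0.85 without Atf6+/+ replicate 2 and -0.30 without Atf6+/+ replicate 5.

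Spp1 (gene ID 20750), which encodes osteopontin, is made by bone cells but also outside bone, including by marginal cells of the stria vascularis and by neurons of the spiral ganglion. It stood at 1878, 1861, 2063, 1725 and 1973 FPKM in Atf6+/+ and between 1807 and 2055 FPKM, median 1966, in Atf6-/- libraries. The highest library was 1.196 times the lowest, and no library was low. The groups averaged 1900 ± 127 FPKM (SD, n = 5) and 1947 ± 94.9 FPKM (SD, n = 6). Its log2 fold change of 0.04 had the narrowest interval of the 10, from -0.14 to 0.22 (SE 0.08, limma adjusted p = 0.901).

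The osteocyte genes came next. Dmp1 (gene ID 13406), whose product regulates matrix mineralisation and restrains the phosphate hormone FGF23, was at 24.5, 30.9, 30.4, 38.6 and 59.5 FPKM in Atf6+/+ and 27.3 to 43.5 FPKM, median 33.5, in Atf6-/- libraries. All 6 Atf6-/- values fell inside the Atf6+/+ range, and only Atf6+/+ replicate 5 stood above 43.5 FPKM. The log2 fold change was -0.05 (SE 0.19, interval -0.47 to 0.37, limma adjusted p = 0.948). It became 0.14 without Atf6+/+ replicate 5, 0.011 without Atf6-/- replicate 5 and 0.0064 after rescaling every library to the same sum (TPM).

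Phex (gene ID 18675), an endopeptidase gene whose loss causes X-linked hypophosphataemia, was at 2.39, 3.20, 3.82, 4.68 and 6.72 FPKM in Atf6+/+ and 2.24 to 4.64 FPKM, median 3.015, in Atf6-/- libraries. Only 1 Atf6-/- library, replicate 2, was outside the Atf6+/+ range. The log2 fold change of Phex was -0.30 (SE 0.25, interval -0.83 to 0.24, limma adjusted p = 0.685), with -0.47 when Atf6+/+ replicate 1 was left out and -0.11 when Atf6+/+ replicate 5 was.

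Mepe (gene ID 94111) encodes matrix extracellular phosphoglycoprotein, an osteocyte protein that limits mineralisation. It was measured at 19.6, 28.2, 47.0, 75.9 and 77.8 FPKM in Atf6+/+ and at 21.0 to 60.2 FPKM, median 30.4, in Atf6-/- libraries. Atf6+/+ replicates 4 and 5 stood above every Atf6-/- library, and all 6 Atf6-/- values were inside the Atf6+/+ range. For Mepe the log2 fold change was -0.46 (SE 0.37, interval -1.27 to 0.34, limma adjusted p = 0.674). Without Atf6+/+ replicate 1 it was -0.75, with an adjusted p of 0.425 in limma, and Mepe was then the only one of the 10 at an unadjusted p under 0.05. In that fit 1865 of the 16172 genes tested were called by the unadjusted p.

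Sost (gene ID 74499) encodes sclerostin, the osteocyte inhibitor of Wnt signalling through LRP5 and LRP6. It was at 21.3, 25.1, 26.2, 62.8 and 91.6 FPKM in Atf6+/+ and 16.4 to 68.9 FPKM, median 33.9, in Atf6-/- libraries. Unlike the osteoblast genes, Sost was low in Atf6+/+ replicate 3, and it was lowest in Atf6-/- replicate 5. Between genotypes Sost differed by a log2 fold change of -0.08 (SE 0.42, interval -1.0 to 0.84, limma adjusted p = 0.965). It was 0.10, 0.24 and 0.15 without Atf6+/+ replicate 4, Atf6+/+ replicate 5 and Atf6-/- replicate 5, so no direction can be given.

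FPKM are per length of transcript, so levels can be set beside each other between genes. By the mean over 11 libraries the order was Spp1 at 1926 FPKM, Bglap at 264, Ibsp at 47.7, Sost at 42.3, Mepe at 40.9, Alpl at 39.9, Dmp1 at 35.4, Sp7 at 7.53, Phex at 3.67 and Runx2 at 2.42. Spp1 was above Bglap, Bglap above Ibsp, Dmp1 above Sp7, Sp7 above Phex and Phex above Runx2 in 11 of 11 libraries. The neighbours from Ibsp to Dmp1 were not separated, since each was above the next in only 6 or 7 of 11 libraries. Spp1 alone was 1.47 to 9.69 times the summed FPKM of the other 9 genes, which ran from 192 to 1343 FPKM.

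The spread between libraries set these genes apart from most of the transcriptome, with no test attached. Within a genotype the SD of the log2 values was 1.204 for Bglap, larger than that of 98.9% of all genes tested. It was 0.92 for Ibsp, 0.81 for Sost and 0.71 for Mepe, and between 0.37 and 0.54 for Dmp1, Runx2, Phex, Alpl and Sp7. At 0.084, the SD of Spp1 was larger than that of only 12.5% of genes. The median was 0.54 over the 10 genes and 0.15 over all genes tested, and the highest library was 3.09 times the lowest for the median bone gene, against 1.43 times for the median gene.

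The libraries that were high or low were largely the same from gene to gene. Atf6+/+ replicate 5 was the highest library for the 9 genes other than Spp1. The same 5 libraries, Atf6+/+ replicates 1 and 2 and Atf6-/- replicates 1, 2 and 5, were the 5 lowest for 6 genes, Runx2, Sp7, Alpl, Bglap, Ibsp and Mepe. For Runx2, Sp7, Alpl and Ibsp the step between these 5 and the other 6 was the widest anywhere in the order, as for Ibsp, which went from 27.4 to 44.8 FPKM. The low libraries included both genotypes, and the others were 3 Atf6+/+ and 3 Atf6-/- libraries.

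**Figure D2:**
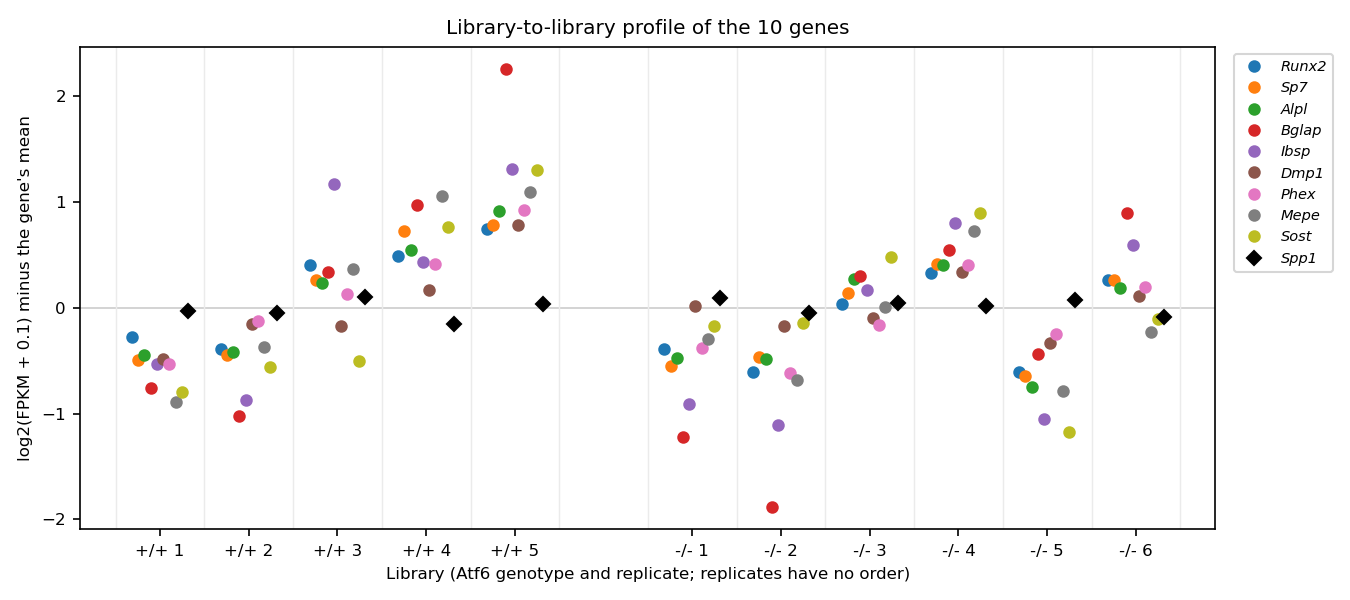
log2(FPKM + 0.1) minus the gene's mean over all 11 libraries (y axis) for each bone gene in each library (x axis, genotype and replicate), 1 point per gene. Points of 9 genes move together, below 0 in Atf6+/+ replicates 1 and 2 and Atf6-/- replicates 2 and 5 and above 0 in Atf6+/+ replicate 5, while Spp1 (black diamonds) stays near 0.

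Because the libraries fall into these 2 sets for several genes, no correlation between pairs of the 10 genes over all 11 libraries is given. Within the 6 higher libraries, 36 of 36 pairs of the 9 genes other than Spp1 had a positive Pearson r, from 0.046 to 0.93 with a median of 0.79, and their Spearman rho ran from 0.26 to 1.0 with a median of 0.77. By an exact permutation test 17 of the 36 r had an unadjusted p under 0.05, and after adjustment over all 45 pairs 0 did, with a lowest adjusted p of 0.0625 in this exact test. That value belongs to Sp7 and Phex, whose unadjusted p of 0.00139 is the smallest this exact test can give with 6 libraries. A single pair could therefore not pass after adjustment, and the count of 0 says little about the genes. With the 2 libraries farthest from the median of one gene of a pair left out, the r over the remaining 4 ran from -0.97 to 0.98 with a median of 0.46, and 29 of 36 were positive, and 4 libraries are too few to say whether the relation holds without those left out. The 9 pairs with Spp1 had r between -0.38 and 0.50, and 0 of them had an unadjusted p under 0.05 in the same exact test. The 6 libraries were picked by these genes' own levels, which narrows the range of the values, and the 5 low libraries are too few for a correlation.

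**Figure D3:**
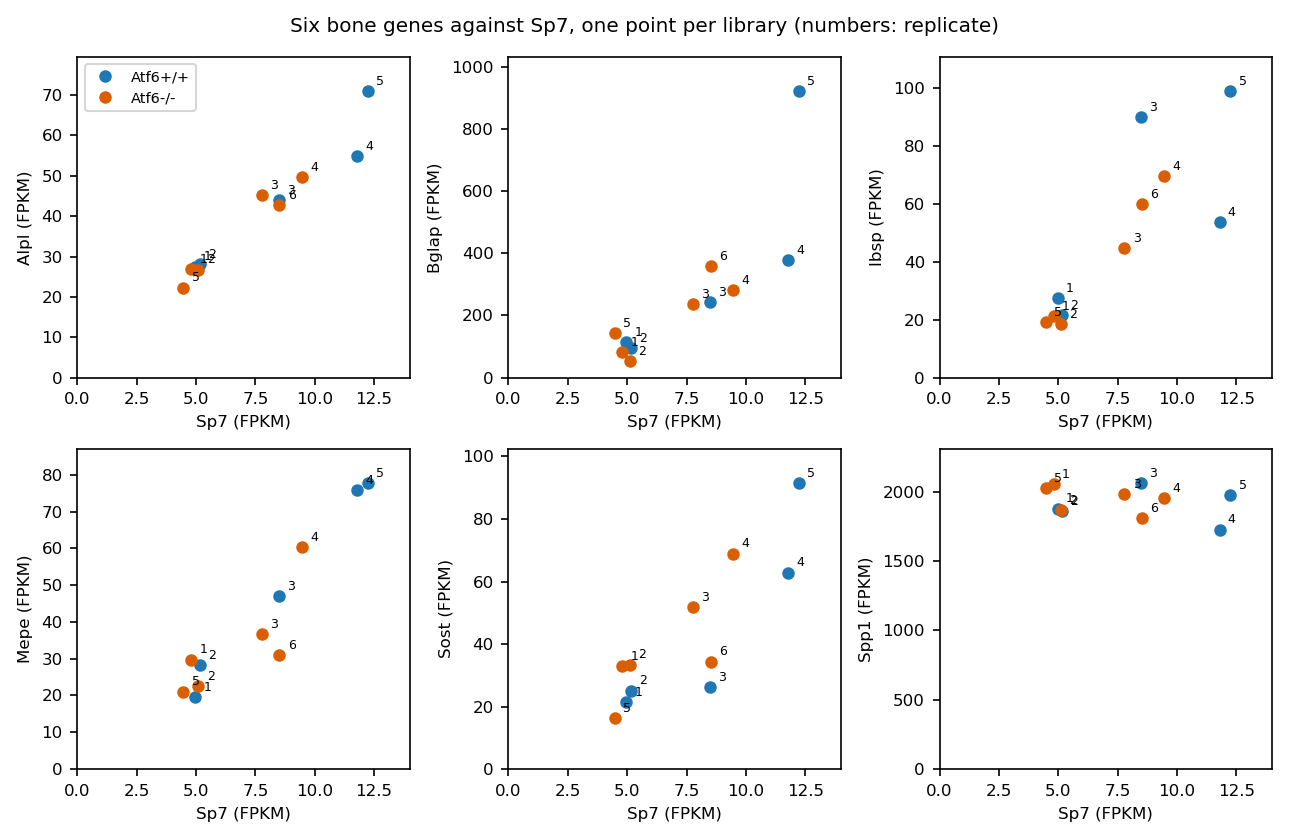
FPKM of Alpl, Bglap, Ibsp, Mepe, Sost and Spp1 (y axes, linear, starting at 0) against FPKM of Sp7 (x axis), 1 point per library with its replicate number. The 5 libraries at or under 5.16 FPKM of Sp7 are also the 5 lowest for Alpl, Bglap, Ibsp and Mepe, not for Sost, and Spp1 stays level along the Sp7 axis.

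Genes outside the 10 were ranked by likeness, the Pearson r of their log2 values with the mean standardised profile of the 10, after subtracting each genotype's mean, over 11 libraries and 13601 candidates with a mean of at least 1 FPKM. These r are a measure of likeness only, since the libraries share the split into low and high. The closest were Bgn, which encodes the matrix proteoglycan biglycan (r = 0.98), Creb3l1, which encodes an ER-anchored transcription factor of osteoblasts (r = 0.97), Col1a1, the main collagen chain of bone (r = 0.96), Ptgis, the prostacyclin synthase gene (r = 0.96), and Anxa11, an annexin gene (r = 0.96). Their group means in Atf6+/+ and Atf6-/- cochleae were 142 and 126 FPKM for Bgn, 8.47 and 9.51 for Creb3l1, 74.4 and 39.5 for Col1a1, 23.0 and 18.1 for Ptgis, and 28.9 and 27.7 for Anxa11. None of the 5 passed an adjusted p of 0.05 in limma (Col1a1, log2 fold change -0.67, adjusted p = 0.648). For Col1a1 it was -1.02 without Atf6+/+ replicate 1 and -0.30 without Atf6+/+ replicate 5.

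Other genes of bone were read from fixed lists, and 0 genes of any list passed an adjusted p of 0.05 in limma. At the unadjusted p 4.48% of all genes tested were higher and 5.37% lower, and 1 call in a list of this size is near those shares. Of 11 osteoblast transcription factors and partners, 1 was higher and 1 lower at the unadjusted p. The lower was Cbfb, which encodes the DNA-binding partner of RUNX2, with 33.3 ± 4.75 FPKM (SD, n = 5) in the wild type and 26.4 ± 1.70 FPKM (SD, n = 6) in the knockout (log2 fold change -0.33, limma adjusted p = 0.323). The higher was Atf4, a stress-induced factor that osteoblasts also need, at 123 and 140 FPKM (log2 fold change 0.19, limma adjusted p = 0.495), and it no longer reached the unadjusted p in 8 of 11 fits without 1 library.

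Of 19 bone matrix genes, 1 was lower and 0 higher at the unadjusted p, and their median log2 fold change was -0.15. That gene was Dcn, which encodes the proteoglycan decorin, at 454 and 385 FPKM (log2 fold change -0.23, limma adjusted p = 0.505). Dcn no longer reached the unadjusted p in 8 of 11 fits without 1 library, without a filter, after rescaling to TPM or with a replicate block. With the marrow score described further on in the model, Dcn was at -0.40 and still reached it. Sparc, the gene of osteonectin and the most abundant of the list, was at 442 and 512 FPKM (log2 fold change 0.20, limma adjusted p = 0.713), with 0.097 without Atf6-/- replicate 5 and 0.32 without Atf6+/+ replicate 5. Of 13 mineralisation and phosphate genes tested, 1 was higher, the phosphate transporter gene Slc20a2 at 34.8 and 39.1 FPKM (log2 fold change 0.17, limma adjusted p = 0.428). Ank, a pyrophosphate transport gene, was level at 84.4 and 85.3 FPKM. Of 7 osteocyte genes 0 were called in either direction, with a median log2 fold change of -0.30. These lists hold some of the 10 genes themselves, Runx2 and Sp7 among the transcription factors, Alpl, Phex, Dmp1 and Mepe among the mineralisation genes, and Sost, Dmp1, Phex and Mepe among the osteocyte genes.

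Osteoclasts, the cells that resorb bone, were followed by 13 genes, of which 1 was lower and 0 higher at the unadjusted p. It was Mmp9, a matrix protease gene that neutrophils also express, with 19.9 ± 18.2 FPKM (SD, n = 5) in the wild type and 5.40 ± 3.66 FPKM (SD, n = 6) in the knockout (log2 fold change -1.57, limma adjusted p = 0.462). With the marrow score described further on in the limma model, Mmp9 was at -0.29 and no longer reached the unadjusted p. Acp5, the gene of tartrate-resistant acid phosphatase, was at 32.8 ± 27.7 and 12.3 ± 8.73 FPKM (log2 fold change -0.82, limma adjusted p = 0.763), with -1.61 without Atf6+/+ replicate 2 and -0.36 without Atf6+/+ replicate 3. The median log2 fold change of the list was -0.49, and 0 to 4 of its genes were lower at the unadjusted p when 1 library was left out. Of 3 genes of the RANKL axis, which drives osteoclast formation, 0 were called. When 1 library was left out, 0 to 1 of these were lower and 0 to 1 higher, and 1 was higher after rescaling to TPM. Tnfrsf11b, the gene of the decoy receptor osteoprotegerin, was at 20.6 and 26.3 FPKM (log2 fold change 0.35, limma adjusted p = 0.505), and at a log2 fold change of 0.060 with the marrow score in the model.

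Signals that act on bone cells gave few calls as well. Of 13 Wnt genes 0 were called. When 1 library was left out, 0 to 1 of the Wnt genes were lower and 0 to 2 higher. Rescaling to TPM gave 2 higher, and median-of-ratios scaling or the marrow score 1. Of 13 bone morphogenetic protein (BMP) genes 1 was higher, the ligand gene Bmp6 with 33.3 ± 4.96 FPKM (SD, n = 5) in the wild type and 43.2 ± 2.998 FPKM (SD, n = 6) in the knockout (log2 fold change 0.39, limma adjusted p = 0.280). With the marrow score in the model Bmp6 was at 0.16 on the log2 scale. Of 6 hormone and FGF receptor genes 1 was higher, Fgfr3, whose product restrains growth of cartilage. It was at 5.35 to 8.15 FPKM in Atf6+/+ and 9.32 to 11.9 FPKM in Atf6-/- libraries, without overlap (log2 fold change 0.59, limma adjusted p = 0.133). Sfrp4, Id1 and Fgfr1, the most abundant genes of their lists, averaged 101 and 104, 53.8 and 56.4, and 96.1 and 102 FPKM in Atf6+/+ and Atf6-/- cochleae.

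Bone holds marrow, and some markers of marrow cells were lower in Atf6-/- cochleae at the unadjusted p, which 5.37% of all genes tested were, and none at the adjusted p. Of 10 erythroid genes 7 were lower and 0 higher, with a median log2 fold change of -1.46 and a summed level of 4840 to 46410 FPKM in Atf6+/+ and 2875 to 9392 FPKM in Atf6-/- libraries. Of 10 neutrophil genes 5 were lower and 0 higher, with a median of -1.48 and sums of 287 to 3564 and 115 to 1342 FPKM. Of 10 B lineage genes 4 were lower and 0 higher, with a median of -0.79 and sums of 35.3 to 60.3 and 33.1 to 42.8 FPKM. When 1 library was left out, the number lower ran from 6 to 9 for the erythroid, from 1 to 7 for the neutrophil and from 2 to 6 for the B lineage genes, and the neutrophil count was 1 without Atf6+/+ replicate 3 and without Atf6+/+ replicate 4. Macrophage markers (0 of 8 called) summed to 182 to 267 and 128 to 235 FPKM. Of 12 chondrocyte genes 2 were higher and 0 lower, Acan at 16.9 and 21.3 FPKM and Sox9 at 19.4 and 24.1 FPKM, with a median of 0.18. With the marrow score in the model Acan was at 0.17 and Sox9 at 0.15 on the log2 scale, and neither reached the unadjusted p. When 1 library was left out, 0 to 3 chondrocyte genes were higher and 0 to 1 lower, and 0 were called with a replicate block. No gene of these lists was at 0 in every library, and the part of these cells in the bone gene values was not tested.

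When the mean of the erythroid, neutrophil and B lineage scores was added to the limma model, the median log2 fold change of the 10 bone genes went from -0.31 to 0.037, with 8 genes above 0 and 2, Phex and Mepe, below it. Bglap was then at 0.060, Sp7 at 0.13 and Ibsp at 0.36, and none of the 10 passed an adjusted p of 0.05. The score itself differed by genotype, at 3.37 to 5.43 in Atf6+/+ and 1.96 to 3.78 in Atf6-/- libraries. Adding it therefore takes up part of the genotype difference, and the SE of Bglap went from 0.63 to 0.77. Whether marrow accounts for the bone gene values was not tested. Adding the mean of Sp7 and Runx2 in place of the marrow score, an alternative chosen after the data had been seen, gave 0.075 for Bglap, 0.031 for Ibsp, 0.046 for Alpl and 0.37 for Sost (limma adjusted p = 0.751), while Phex was at -0.023, Mepe at -0.028 and Spp1 at 0.030. Sp7 and Runx2 are themselves among the 10 genes, so this model removes by construction whatever change the others share with them.

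**Figure D4:**
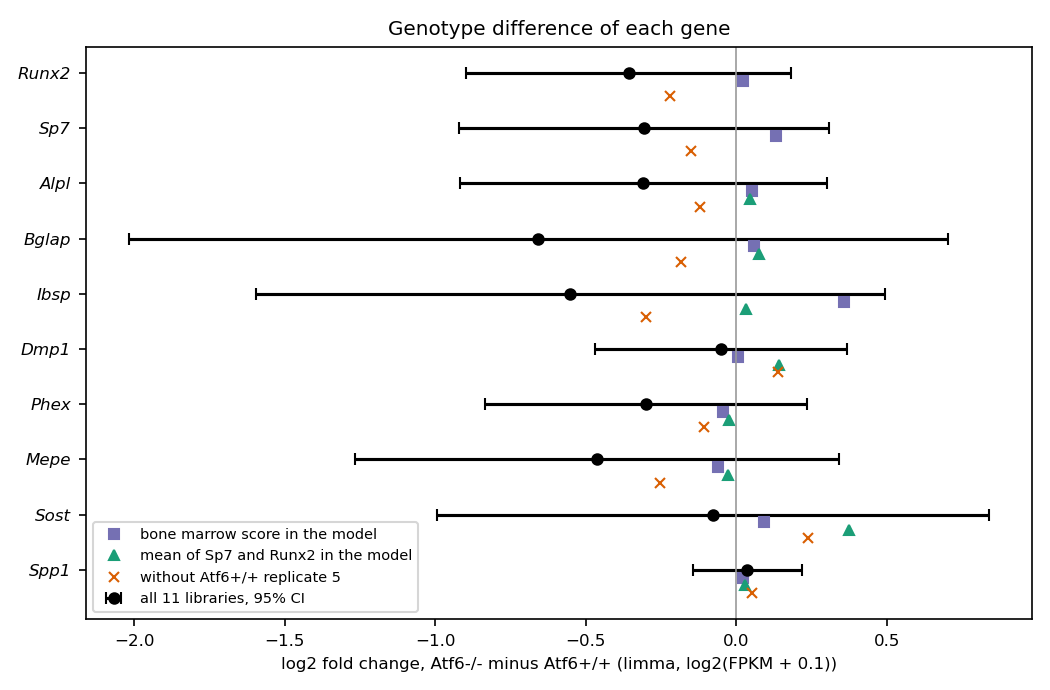
log2 fold change of each bone gene, Atf6-/- minus Atf6+/+ (x axis), with all 11 libraries (black, bars for the 95% confidence interval), with a bone marrow score or the mean of Sp7 and Runx2 in the limma model, and without Atf6+/+ replicate 5. All 10 intervals include 0, and most points move to or past 0 when a covariate is added. The marrow score itself was 3.37 to 5.43 in Atf6+/+ and 1.96 to 3.78 in Atf6-/- libraries, and the cause of these moves was not tested.

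Atf6+/+ replicate 3 had the highest marrow score of all libraries, while Atf6+/+ replicate 5 had the highest bone gene mean, 6.07 on the log2 scale, with a marrow score of 3.87 that 2 other libraries exceeded.

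**Figure D5:**
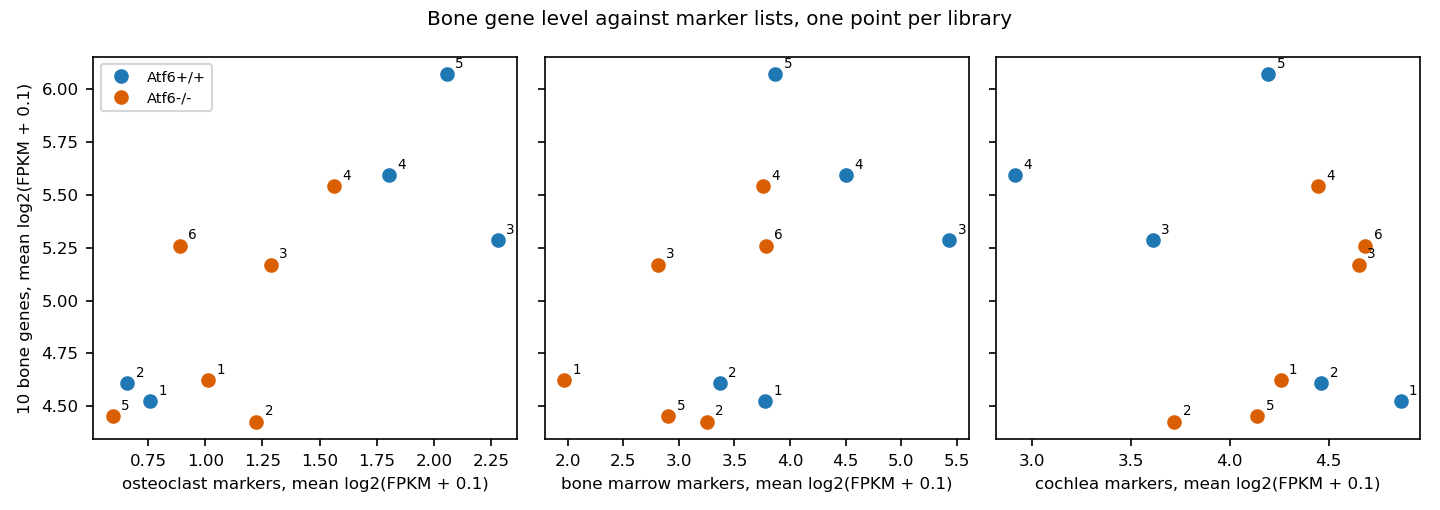
Mean log2(FPKM + 0.1) of the 10 bone genes (y axis) against the mean log2(FPKM + 0.1) of osteoclast, bone marrow and cochlea marker genes (x axes), 1 point per library with its replicate number. The bone gene mean runs from 4.43 to 6.07, libraries of both genotypes lie at its low and high ends, and the 2 libraries highest in marrow markers are Atf6+/+ replicates 3 and 4.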

How the data were processed

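RNA-Seq was measured in 11 whole-cochlea libraries. The authors aligned stranded mRNA reads to GRCm39 with HISAT2 2.0.4 and deposited FPKM values computed with RSEM (1.2.12 in the submitters' processing notes). They tested counts with DESeq2, which FPKM values do not allow. The files hold no counts, so they do not show the depth of each library.

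Here 0.1 was added to each FPKM before log2 transformation, and the 16169 genes averaging 0.1 FPKM or more were fitted with limma 3.58.1 (R 4.3.3, mean-variance trend, genotype as the only term, two-sided, Benjamini-Hochberg adjustment over all genes tested). Single genes were also compared by the exact two-sided permutation test over all splits into 5 and 6, whose smallest p is 0.00216. A list score is the mean log2 value of its genes.

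The genes and lists were chosen with earlier results of these data known. Named were all 10 bone genes, Bglap2, Bglap3 and Atf6, from each list the most abundant gene and at most 4 called by the unadjusted p (at most 0.05, and a log2 fold change over 0.05 in size), and the 5 genes most like the 10. Col1a1 was the third of those 5. Correlations between the 10 genes over all 11 libraries had been planned and were replaced by correlations over 6, after the libraries were seen to fall into 2 sets. Alternatives were pseudocounts of 1 and 0.01, other filters, scaling to TPM or by median of ratios, robust variance, a replicate block, 2 covariates, summed osteocalcin copies and leaving out each library. Python 3.11.15 was used for the remaining steps.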

Additional observations from a re-analysis of the deposited data

How the results depend on the processing

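None of the 10 bone genes passed an adjusted p of 0.05 in limma under any alternative, and the lowest was 0.425 (Mepe, without Atf6+/+ replicate 1). The direction changed in the following cases, and the cause was not tested. With the bone marrow score as a covariate, log2 fold changes became 0.060 for Bglap, 0.13 for Sp7, 0.36 for Ibsp, 0.0052 for Dmp1, 0.052 for Alpl, 0.023 for Runx2 and 0.092 for Sost, and among other named genes 0.43 for Acp5, -0.23 for Sfrp4, -0.088 for Id1, -0.13 for Cnmd of cartilage, -0.069 for Mylpf of muscle, 0.13 for Bglap2, -0.15 for Bglap3, 0.011 for Bgn, 0.10 for Col1a1 and 0.00079 for Anxa11. Phex was at -0.045 and Mepe at -0.061. With this score 0 of the erythroid, neutrophil and B lineage genes, from which it is made, were lower at the unadjusted p (2 neutrophil genes and 1 B lineage gene were higher), but the erythroid genes were still at -1.08 for Hba-a1, -1.13 for Alas2, -1.10 for Hbb-bt and -1.17 for Hbb-bs. Of the other named list genes that no longer reached it, Atf4 was at 0.22, Slc20a2 at 0.13, Emcn at 0.22, Cidec at -1.06 and Cfd at -1.73, against 0.19, 0.17, 0.29, -1.31 and -2.20 without the score, while Mmp9 was at -0.29, Acan at 0.17, Sox9 at 0.15, Coch at 0.16 and Slc26a5 at 0.58, against -1.57, 0.35, 0.31, 0.33 and 1.197. In fits without 1 library the unadjusted p was lost in 8 of 11 for Atf4 and Dcn, 7 for Acan, Cfd and the neutrophil gene Lcn2, 6 for Sox9, Coch, Slc26a5 and the B lineage gene Ms4a1, 4 for Mmp9 and S100a9, 3 for Cd79a, 2 for S100a8 and 1 for Blnk. With the mean of Sp7 and Runx2 as a covariate they became 0.075 for Bglap, 0.031 for Ibsp, 0.14 for Dmp1, 0.046 for Alpl and 0.37 for Sost. After rescaling to TPM the all-gene median was 0.041 instead of -0.013, with 0.0064 for Dmp1 and 0.0014 for Anxa11. Leaving out 1 library at a time gave -1.0 to -0.18 for Bglap, -0.96 to -0.078 for Bglap2, -0.85 to -0.30 for Ibsp, -0.75 to -0.25 for Mepe, -0.50 to -0.22 for Runx2, -0.18 to 0.14 for Dmp1, -0.29 to 0.24 for Sost, -0.00011 to 0.034 for Ank, -0.15 to 0.24 for Sfrp4, -0.033 to 0.21 for Id1, -0.088 to 0.51 for Mylpf and -0.31 to 0.37 for Bglap3. The number of bone genes at the unadjusted p ran from 0 to 1 when 1 library was left out, and their median log2 fold change from -0.47 to -0.14. The count was 1 of 10 without Atf6+/+ replicate 1, where 1865 of the 16172 genes tested were called.

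Deviations of same-numbered libraries correlated at only -0.21 to 0.12, and 1 of 5 Atf6+/+ libraries correlated best with its own number. The bone gene mean, however, was 4.53, 4.61, 5.28 and 5.59 in Atf6+/+ replicates 1 to 4. It was close to these in Atf6-/- replicates 1 to 4, at 4.62, 4.43, 5.17 and 5.54. In replicate 5 it was 6.07 in Atf6+/+ and 4.45 in Atf6-/-. Whether the numbers pair the libraries is not given in the sources used here and was not tested. With a replicate block, which drops Atf6-/- replicate 6, 1 bone gene, Bglap, reached the unadjusted p (log2 fold change -0.90, unadjusted limma p = 0.0363 where the exact permutation test of the unblocked values gave 0.392), Bglap3 was at -0.094, and 4 genes in all passed an adjusted p of 0.05, against 11 without the block. With the marrow score 6 genes passed, and 871 were at the unadjusted p, against 1592 without it.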

Other observations

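Markers of tissues next to the capsule stood apart in single libraries. Skeletal muscle genes summed to 2.96 to 5.85 FPKM in Atf6+/+ and 1.80 to 43.9 FPKM in Atf6-/- libraries, with the highest score in Atf6-/- replicate 3. Adipocyte genes summed to 1.61 to 63.4 FPKM in Atf6+/+, highest in replicate 4, and 0.98 to 3.17 FPKM in Atf6-/- libraries, and 2 of 4, Cidec and Cfd, were lower at the unadjusted p. That count ran from 0 (without Atf6+/+ replicate 4, where Cidec was too low to be tested) to 3 when 1 library was left out, and was 0 with a pseudocount of 1, where Cidec was at -0.31 on the log2 scale, against -1.31 with 0.1 and -3.18 with 0.01. Of 5 endothelial genes 1 was higher, Emcn, which encodes endomucin, with 62.6 ± 5.37 FPKM (SD, n = 5) in the wild type and 76.98 ± 10.99 FPKM (SD, n = 6) in the knockout (log2 fold change 0.29, limma adjusted p = 0.393). Of 12 cochlea genes 2 were higher, Coch at 2421 and 3034 FPKM (log2 fold change 0.33, limma adjusted p = 0.481) and Slc26a5, the gene of the outer hair cell motor prestin, at 0.700 and 1.93 FPKM (log2 fold change 1.197, limma adjusted p = 0.475). That count ran from 0 to 4 when 1 library was left out. It was 4 after rescaling to TPM, 3 with median-of-ratios scaling, 1 with a replicate block and 0 with the marrow score. Coch also lost its call without a filter and with the block.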
